A study of Mus musculus with 14 samples.

Results

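The translation initiation factors of mouse liver were followed in mice that lack Mettl3 in hepatocytes. They were the protein-coding genes whose symbol begins with Eif and a digit, leaving out pseudogenes, the eIF2 kinases (Eif2ak1 to Eif2ak4) and the sex-linked pair Eif2s3x and Eif2s3y. This gave 49 of the 54446 genes measured. The rule used names and not values, but it was chosen with earlier results of these data known. Total RNA was sequenced from flash-frozen liver of 14 mice of the C57BL/6 strain, all aged 5 weeks. The 6 controls carried a floxed Mettl3 gene without Cre, and the 8 knockouts carried the floxed gene together with Alb-Cre, whose Cre is made under the promoter of albumin, a gene of the hepatocyte lineage. Mettl3 was not measured by cell type. Mettl3 is the catalytic subunit of the enzyme that places the m6A mark on mRNA. The labels give neither sex nor time of day, and nothing in them says that the mice came from separate litters, so p-values measure the spread between these livers.

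Initiation of translation is the step at which a ribosome is brought to the start codon of an mRNA. The cap-binding protein eIF4E, the scaffold eIF4G and the RNA helicase eIF4A form the eIF4F complex at the 5′ end of the mRNA, and the 4E-binding proteins compete with eIF4G for eIF4E until the kinase mTOR phosphorylates them. The small ribosomal subunit arrives with eIF1, eIF1A, the many-subunit eIF3 and a ternary complex of eIF2, GTP and initiator tRNA, scans to the start codon, and is joined by the large subunit with the help of eIF5 and eIF5B. The exchange factor eIF2B reloads eIF2 with GTP, and its inhibition by phosphorylated eIF2 is the core of the integrated stress response. In liver these factors serve a tissue that exports large amounts of plasma protein and adjusts synthesis to feeding.

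The measure, called a value, was the estimated count of a gene after normalisation of the library. Values were not corrected for gene length, so levels were compared between libraries and never between genes. Depth ran from 11.1 to 33.8 M estimated reads per library, where M stands for megareads. They fell into a class with Y-linked transcripts (controls 1 to 4, knockouts 1 to 4) and a class with high Xist (controls 5 and 6, knockouts 5 to 8), and the Xist-high class was the shallower at 11.1 to 19.3 M against 24.3 to 33.8 M. On the first principal component, which held 31.3% of the variance over genes, knockouts 3, 6 and 7 stood apart at 61.5, 99.7 and 96.3 while the other knockouts lay between -10.7 and 27.6. Results that rest on these 3 libraries are given with and without them. Mettl3 itself ranged from 199 to 263 in controls and from 76.9 to 122 in knockouts, so every knockout lay below every control, and its log2 change was -1.17 (SE 0.12, limma adjusted p = 1.32e-05). Of the 6 hepatocyte markers examined (Alb, Apoa1, Ttr, Hnf4a, Cps1 and Serpina1a), 5 were lower in knockouts, with summed values of 694951 to 842283 in controls and 328169 to 655530 in knockouts. Of the 6 cholangiocyte markers 3 were higher (summed values 697 to 1247 against 1073 to 3527), of the 6 endothelial markers 3 were lower (3748 to 4590 against 2480 to 4128), and no marker of any list was at 0 in all libraries. Of 6 pancreatic acinar markers 2 could be tested and 1 was lower, and knockout 4 stood apart with a sum of 8400, where controls had 302 to 795 and the remaining 7 knockouts 139 to 227. Without knockout 4 all 11 initiation factors called below were still called, with Eif4e3 called higher as well. The part of these shifts in the results was not tested, and in whole liver a smaller share of a cell type cannot be told apart from less RNA per cell.

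All 49 initiation factor genes passed the filter on low values, a value of 10 or more in 6 or more libraries. On log2(value + 1), 2 of them rose in knockouts (Eif1a and Eif4ebp1) and 9 fell (Eif2b4, Eif3g, Eif4a2, Eif4g2, Eif1b, Eif5, Eif2b5, Eif4ebp2 and Eif2d) at a limma adjusted p of at most 0.05, and 38 did not pass. Over the 23554 genes tested, which include genes of low value, the same threshold called 11.5% higher, 11.0% lower and 22.4% in either direction. For the initiation factors the shares were 4.08%, 18.4% and 22.4%, so the share in either direction was that of all genes tested. The match holds for that background only. In a fit of the 11777 genes above the median value, 4453 were called, with 2 initiation factors higher and 12 lower. The 4453 are a larger share of their genes than the factors called there are of all 49. Neither the direction of those 4453 nor the number of factors that entered that fit was counted. The median log2 change was -0.12 over the initiation factors and 0.05 over all genes tested. With the deposited scaling 35 factors were below 0 and 14 above, and with every library rescaled to equal sums 10 were below 0 and 39 above. With the deposited scaling the changes ran from -0.87 for Eif4ebp3 to 1.43 for Eif1a. The changes of the 9 that fell lay between -36.6% and -20.3%, and that of Eif1a was 170%. All 8 knockouts lay above every control for 1 factor, Eif1a (2.04%, against 4.14% of all genes), and below every control for 2, Eif2b4 and Eif4a2 (4.08%, against 4.02%).

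**Figure D1:**
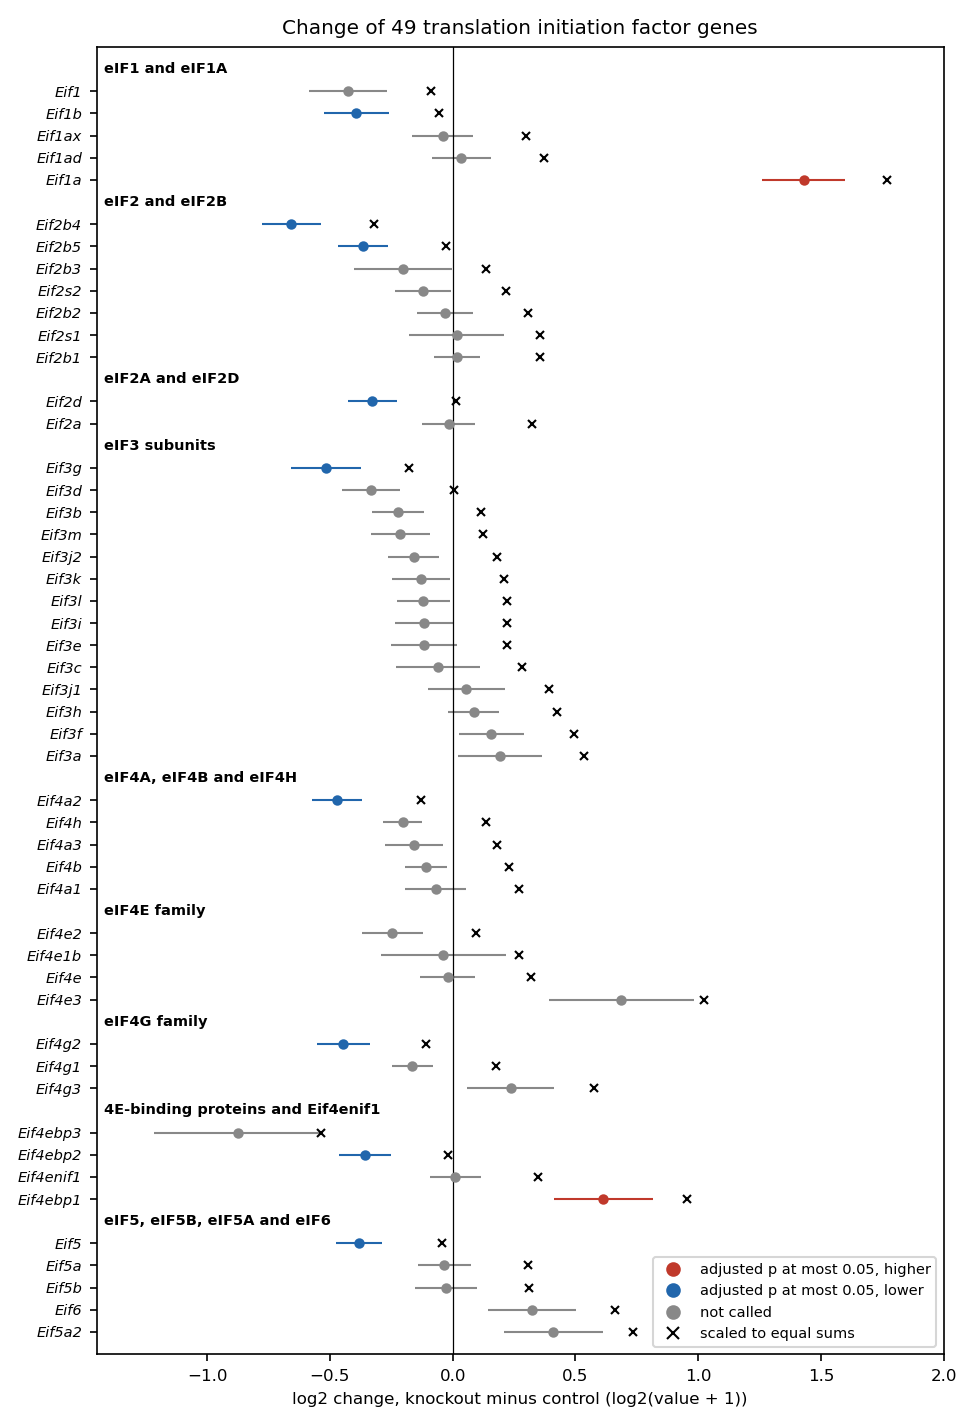
Log2 change (knockout minus control, on log2(value + 1)) of the 49 initiation factor genes, grouped by role, with points coloured by call, bars of 1 standard error, and crosses for the change after rescaling to equal sums outside ribosomal RNA. Eif1a, at 1.43, stands to the right of all others, and most factors lie between -0.66 and 0.32, while the crosses lie to the right of the points, with a median of 0.22 against -0.12.

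The direction of the small decreases depended on the scaling. The values of a control library summed to 24.1 M (SD 2.43, n = 6) and those of a knockout library to 19.1 M (SD 1.37, n = 8), and rescaling every library to the same sum outside ribosomal RNA raised the median of all genes by 0.33, from 0.05 to 0.38. Under that scaling 13 initiation factors were called higher and 0 lower (33.3% and 3.68% of all genes), and the 9 genes that fell lay between -0.32 and 0.012, with only Eif2d turning above 0. Relative to the median of all genes, the median initiation factor was at -0.17 with the deposited scaling and at -0.16 with equal sums, and 39 of 49 lay below that median in both. Quantile normalization gave a median of 0.01 relative to all genes, with 22 of 49 below, 2 called higher and 4 lower. Of all 23554 genes tested, 4762 were called in either direction under quantile normalization, a larger share than that of the factors. This scaling ended the calls of Eif3g (-0.37), Eif4g2 (-0.26), Eif2d (-0.24), Eif5 (-0.14) and Eif4ebp2 (-0.12). Eif1a and Eif4ebp1 were called higher under each of these scalings.

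Among the factors that open the scanning ribosome, eIF1 and eIF1A, 1 of 5 rose and 1 fell. Eif1a, the autosomal gene for eIF1A, which binds the decoding site of the small subunit and holds it open for scanning, rose from 660, 780 and 875 (lowest, median and highest control) to 1458, 1916 and 3328 in knockouts. Every knockout was above every control, and the mean went from 760 (SD 81.0, n = 6) to 2122 (SD 663, n = 8). It lies on chromosome 18 (GENCODE M21, GRCm38). Its log2 change was 1.43 (SE 0.17, adjusted p = 4.42e-05), a 2.70-fold increase on the log2(value + 1) scale. The highest knockouts were libraries 6 and 7, at 2896 and 3328, but the change was 1.18 (adjusted p = 3.26e-05) without knockouts 3, 6 and 7. It was 1.29 in the Y-positive libraries (adjusted p = 0.0011) and 1.56 in the Xist-high libraries, where it did not pass (adjusted p = 0.081).

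Eif1ax, the X-linked gene for nearly the same protein, did not pass, at 1415, 1839 and 2035 in controls and 1296, 1699 and 2284 in knockouts (log2 change -0.04, SE 0.12, adjusted p = 0.85). The groups overlapped almost completely. The transcripts of the pair shared 0 stretches of 31 bases, the length of a default kallisto index word, so reads of one are not readily assigned to the other. Eif1b, which encodes a close relative of the start-codon gatekeeper eIF1, fell from 315, 387 and 455 to 227, 277 and 381, with 5 of 8 knockouts below every control (log2 change -0.39, SE 0.13, adjusted p = 0.042). It lost the call without knockouts 3, 6 and 7 (-0.30, adjusted p = 0.18) and when controls 1 to 5 or knockouts 1, 2, 3, 6 or 7 were left out singly (adjusted p up to 0.0997). Eif1 itself was at -0.43 (SE 0.16) and missed the threshold at an adjusted p of 0.063, with 5 of 8 knockouts below every control; without knockout 5 or 6 it passed (adjusted p down to 0.028). Eif1ad, a distant relative of eIF1A, was at 0.03.

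**Figure D2:**
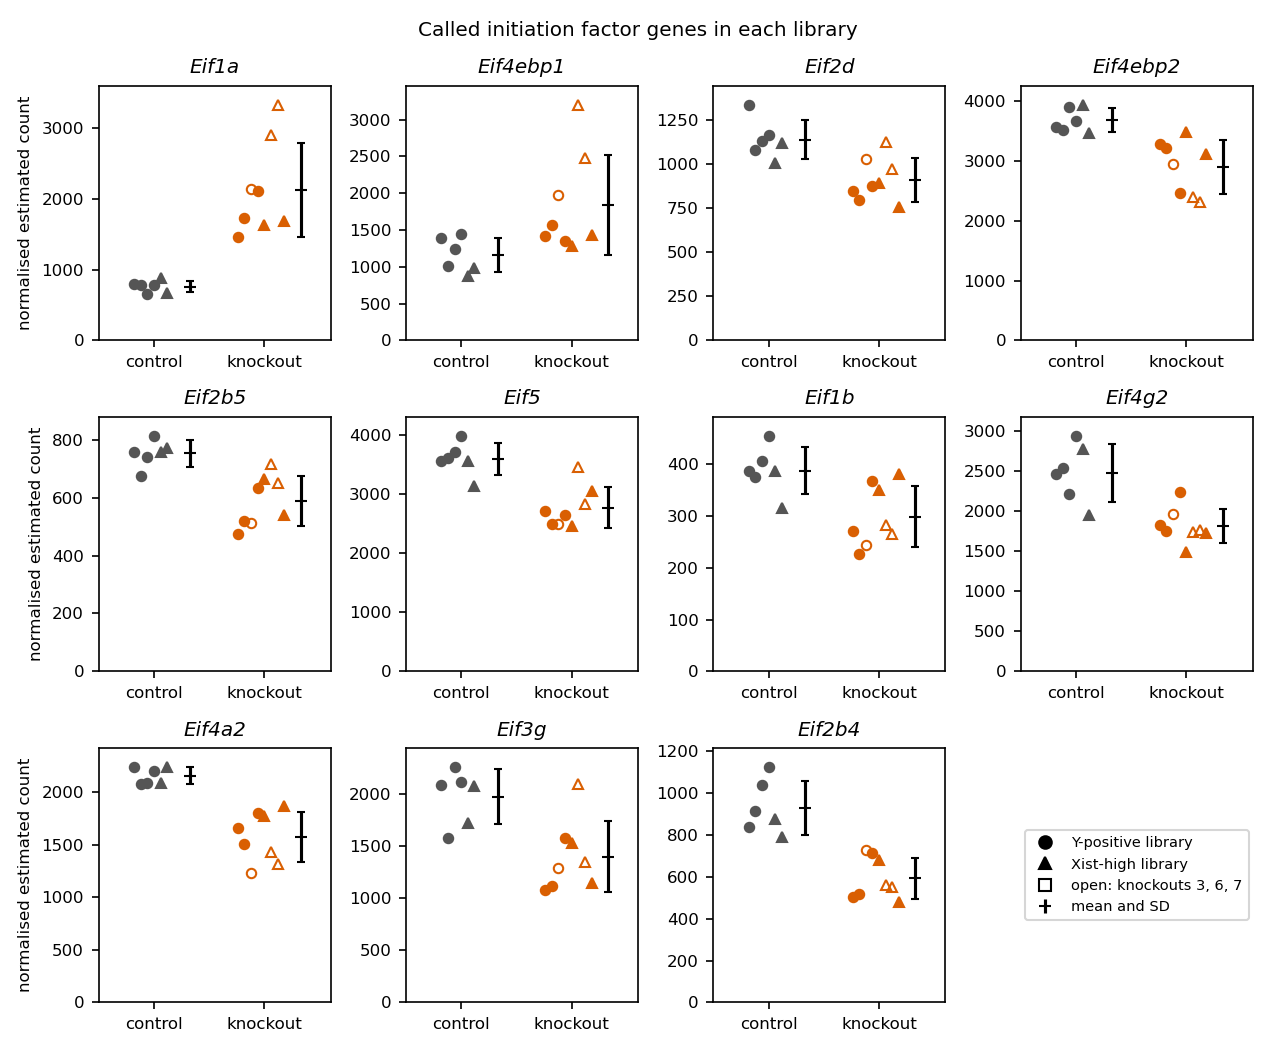
Values (normalised estimated counts, linear axes from 0) of the 11 initiation factor genes called, with 1 point per library in controls (n = 6) and knockouts (n = 8), circles for Y-positive and triangles for Xist-high libraries, open symbols for knockouts 3, 6 and 7, and a bar at each group's mean and SD. Eif1a separates the groups upward, Eif2b4 and Eif4a2 separate them downward, and the groups of the other 8 genes overlap.

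For eIF2 and its exchange factor eIF2B, 2 of 7 genes fell and 0 rose, and both encode subunits of eIF2B, 1 of its regulatory core and 1 of its catalytic part. Eif2b4 (chr5:31187558-31193430, minus strand), the delta subunit of the regulatory core, fell from 788, 894 and 1124 in controls to 480, 555 and 728 in knockouts. All knockouts were below all controls, the log2 change was -0.66 (SE 0.12, adjusted p = 0.0013), and without knockouts 3, 6 and 7 it was -0.69 (adjusted p = 0.0036). Eif2b5, the epsilon subunit that carries the exchange activity, fell from 675, 758 and 813 to 476, 586 and 714, with 7 of 8 knockouts below every control (log2 change -0.37, SE 0.10, adjusted p = 0.017). The other eIF2B subunits, Eif2b1, Eif2b2 and Eif2b3, were at 0.02, -0.03 and -0.20 and did not pass, among them the other catalytic subunit, Eif2b3 (gamma, adjusted p = 0.51). The alpha and beta subunits of eIF2, Eif2s1 and Eif2s2, were at 0.02 and -0.12. Eif2s1 had a wide spread in knockouts, from 480 to 1285 against 644 to 972 in controls. With equal sums Eif2b4 was at -0.32 (adjusted p = 0.063), whereas with quantile normalization it passed (-0.60, adjusted p = 0.0018), and relative to all genes it lay at -0.71 with the deposited scaling and -0.70 with equal sums.

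Of the 31-base words of the Eif2b4 transcripts, 6.81% also occur in transcripts of Snx17, and the strand setting used for counting is not given in the sources used here. Eif2d, which can deliver tRNA to the ribosome without GTP, fell from 1004, 1126 and 1336 to 754, 886 and 1127 (log2 change -0.33, SE 0.10, adjusted p = 0.029). It was 6 of 8 knockouts that lay below every control, and the change turned to 0.012 with equal sums. The call was lost without control 1, 3 or 4 or knockout 2 or 8 (adjusted p up to 0.073). Eif2a, another factor outside the eIF2 complex, was at -0.02 (SE 0.11).

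The eIF3 complex, which carries the small subunit and bridges it to eIF4G, had 1 gene of 14 that fell and 0 that rose. Eif3g, a subunit with an RNA-binding domain near the mRNA entry channel, fell from 1575, 2081 and 2261 to 1080, 1320 and 2098 (log2 change -0.52, SE 0.14, adjusted p = 0.018). Knockout 6 was the highest of the group at 2098 and lay within the control range, and 6 of 8 knockouts were below every control. Eif3d, which can bind the cap of some mRNAs, was at -0.33 (SE 0.12, adjusted p = 0.056) in this fit, and the authors' deposited table gave it a q of 0.044. It was called lower when control 2 or knockout 5 or 6 was left out (adjusted p down to 0.016). The core subunits Eif3a and Eif3c did not pass but were spread widely in knockouts. Eif3a ran from 5863 to 8753 in controls and 6393 to 13818 in knockouts (log2 change 0.19, SE 0.17), and Eif3c from 1610 to 1848 in controls and 1224 to 2780 in knockouts (-0.06, SE 0.17).

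Knockouts 6 and 7 held the 2 highest values of Eif3c, 2780 and 2577, while 5 other knockouts lay below every control. Without knockouts 3, 6 and 7, Eif3c was lower (-0.31, adjusted p = 0.040), as were Eif3d (-0.44, adjusted p = 0.018) and Eif3m (-0.35, adjusted p = 0.032). Words of 31 bases that also occur in other genes made up 10.6% of those of Eif3c, 23.5% of those of Eif3d and 55.3% of those of Eif3m. The other subunits, Eif3b, Eif3e, Eif3f, Eif3h, Eif3i, Eif3j1, Eif3j2, Eif3k and Eif3l, lay between -0.22 and 0.16 with none called. Eif3j1 and Eif3j2 are near copies, with 41.0% and 94.0% of their 31-base words in common, so the split of reads between them is uncertain.

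Of the helicase and its helpers, eIF4A, eIF4B and eIF4H, 1 of 5 genes fell and 0 rose. Eif4a2 (chr16:23107444-23114136, plus strand), the eIF4A paralog most used in differentiated tissue, fell from 2081, 2147 and 2241 to 1234, 1582 and 1865. The 6 controls lay close together (SD 79.0) and all 8 knockouts were below them, with a log2 change of -0.47 (SE 0.10, adjusted p = 0.0039). Without knockouts 3, 6 and 7, which were the 1234, 1427 and 1314 at the bottom of the group, the change was -0.33 (adjusted p = 0.011). Of the 31-base words of Eif4a2, 21.2% also occur in other genes. Eif4a1, the major eIF4A, was at -0.07 (1483, 1692 and 2058 against 1307, 1610 and 2046). Its reads are shared with a pseudogene, Eif4a-ps4, which holds 66.3% of its 31-base words, and the sum of both differed by a log2 of -0.03 (exact two-sided permutation p = 0.83). Eif4a3, the helicase of the exon junction complex, was at -0.16, Eif4b at -0.11 and Eif4h at -0.20 (adjusted p = 0.080, or 0.046 without control 6).

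In the cap-binding eIF4E family 0 of 4 genes passed. Eif4e was at -0.02 (478, 552 and 641 in controls, 443, 550 and 662 in knockouts), and Eif4e2, a cap-binding protein linked to repression, was at -0.25 (SE 0.12, adjusted p = 0.17). Eif4e3 had the largest difference of the family, 0.69 (SE 0.29, adjusted p = 0.11). It ran from 101 to 169 in controls and from 105 to 461 in knockouts, where knockouts 3, 6 and 7 were the highest at 311, 461 and 440, and the change was 0.18 (adjusted p = 0.51) without them. Without knockout 4, the lowest, it was 0.84 (adjusted p = 0.035). Eif4e1b, an oocyte form, had the lowest values, 5.75 to 16.6 over all libraries, and was at -0.04 (SE 0.25).

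Of the scaffolds, Eif4g2, which encodes an eIF4G relative that lacks the eIF4E-binding site, fell from 1946, 2504 and 2940 to 1494, 1758 and 2240 (log2 change -0.45, SE 0.11, adjusted p = 0.0079). The groups overlapped in 2 knockouts, and the change was the same without knockouts 3, 6 and 7 (-0.45, adjusted p = 0.024). It missed the threshold in the Y-positive libraries alone (-0.38, adjusted p = 0.064) and with quantile normalization (-0.26, adjusted p = 0.12), and was at -0.11 with equal sums. Eif4g1, the main scaffold, was at -0.16 (SE 0.08, adjusted p = 0.17), and Eif4g3 at 0.24 (SE 0.18, adjusted p = 0.37).

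The 4E-binding proteins moved apart. Eif4ebp1 (chr8:27260329-27276674, plus strand), the most studied of these repressors of eIF4E and a target of mTOR, rose from 881, 1132 and 1444 to 1287, 1499 and 3202 (log2 change 0.61, SE 0.20, adjusted p = 0.040). Of the 8 knockouts 4 were above every control, and the highest were knockouts 3, 6 and 7 at 1980, 3202 and 2478. Without these 3 the change was 0.30 and did not pass (adjusted p = 0.13). It also missed the threshold in the Y-positive libraries alone (0.31, adjusted p = 0.21), in the Xist-high libraries alone (1.07, adjusted p = 0.21), and without control 2, 3, 5 or 6 or knockout 3 or 7 singly (adjusted p up to 0.090).

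Eif4ebp2, the paralog with the same binding motif, fell from 3469, 3624 and 3941 to 2309, 3030 and 3485, with 7 of 8 knockouts below every control (log2 change -0.36, SE 0.11, adjusted p = 0.025). It lost the call without knockouts 3, 6 and 7 (-0.25, adjusted p = 0.089) and without control 3 or 5 (adjusted p up to 0.054), and was at -0.02 with equal sums. Eif4ebp3 had the lowest change of all 49 factors, -0.87, but a wide spread (220 to 859 in controls, 131 to 574 in knockouts, SE 0.34, adjusted p = 0.080). Of its 31-base words, 66.4% occur in transcripts of 1 other gene, AC115631.1. Eif4ebp3 passed without control 5 (-1.14, adjusted p = 0.017) or knockout 2 (adjusted p = 0.047). Eif4enif1, the shuttling protein that carries eIF4E into the nucleus, was at 0.01.

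Of the factors of subunit joining and after, 1 of 5 fell and 0 rose. Eif5, which triggers GTP hydrolysis on eIF2 at the start codon, fell from 3136, 3588 and 3989 to 2458, 2685 and 3458, with 7 of 8 knockouts below every control (log2 change -0.38, SE 0.09, adjusted p = 0.0086). The change was -0.14 (adjusted p = 0.38) with quantile normalization and -0.04 with equal sums. Eif5b was at -0.03 and Eif5a, whose product carries the hypusine residue, at -0.03, which became 0.31 with equal sums. Eif5a2 was at 0.41 (SE 0.20, adjusted p = 0.16) with values of at most 38.4. Eif6, which keeps the ribosomal subunits apart, ran from 591 to 771 in controls and 596 to 1391 in knockouts (0.32, SE 0.18, adjusted p = 0.22), and the change was 0.01 without knockouts 3, 6 and 7, which were at 1168, 1157 and 1391.

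Knockouts 3, 6 and 7 thus carried higher values of several factors than the rest of their group. All 3 were above each of the other 5 knockouts in 12 of the 49 genes (24.5%, against 11.2% of all genes tested) and below each of them in 3 (6.12%, against 8.58%). The 12 were Eif4enif1, Eif2s1, Eif3a, Eif2d, Eif6, Eif4g3, Eif4ebp1, Eif3l, Eif1a, Eif4a1, Eif1ax and Eif4e3, and the 3 were Eif4a2, Eif4g1 and Eif4ebp3. The log2 SD was larger in knockouts than in controls for 38 of the 49 factors (77.6%, against 64.9% of all genes). The factors together made up 0.288% to 0.360% of the summed values in controls and 0.313% to 0.503% in knockouts, with 0.425%, 0.503% and 0.454% in knockouts 3, 6 and 7. The sums themselves were lower in knockouts, with a mean of 19.1 M against 24.1 M in controls. With equal sums, 39 of the 49 factors lay below the median change of all genes, so the larger share is not a rise relative to most genes. The share of mitochondrially encoded mRNA was 7.85% and 7.91% in knockouts 6 and 7 and 2.77% to 5.47% in controls, and its part in these values was not tested.

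**Figure D3:**
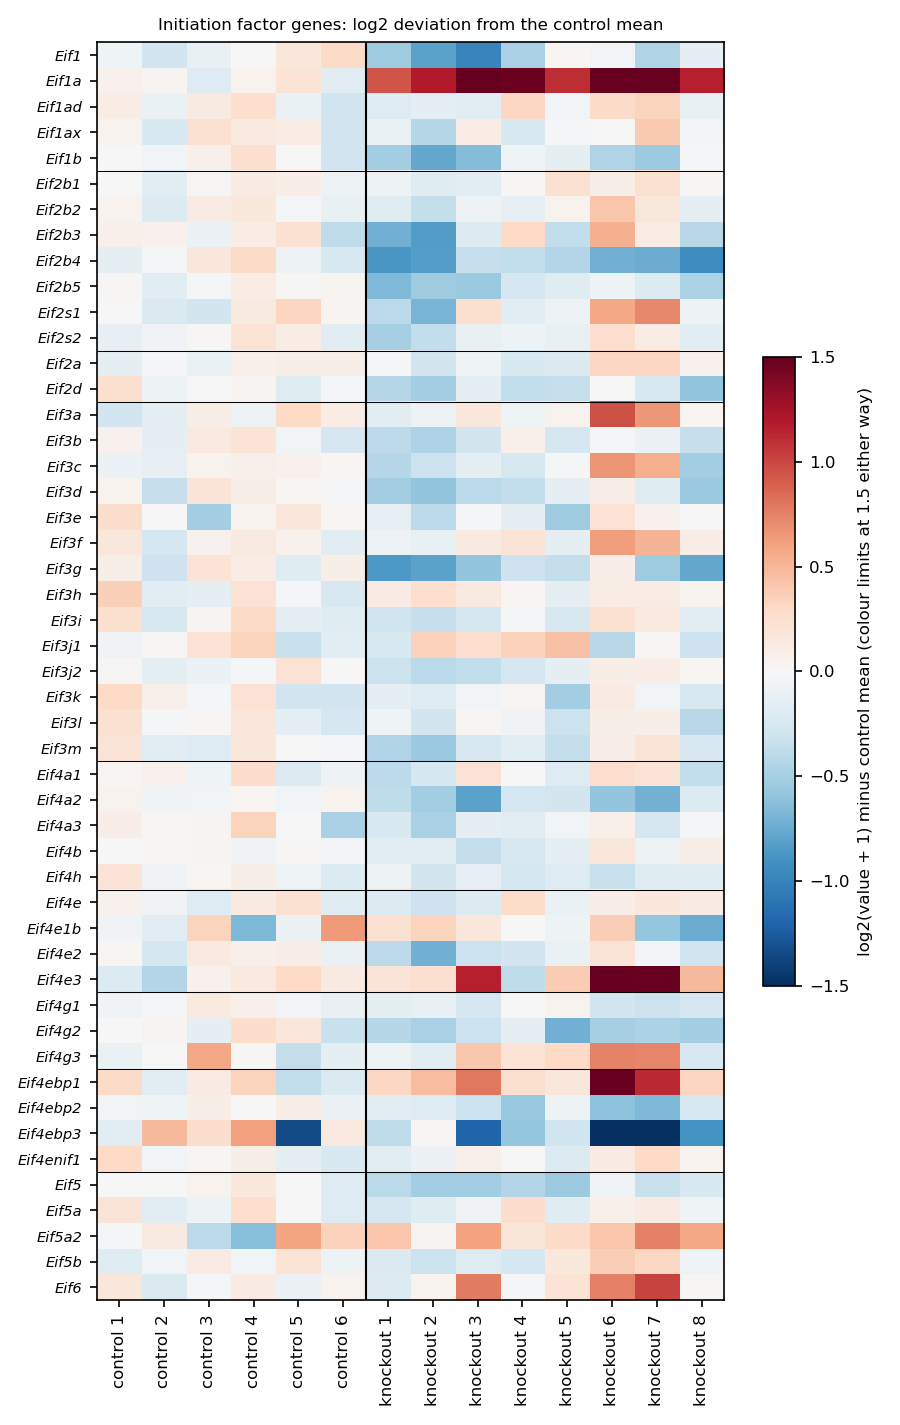
Deviation of each library from the control mean, on log2(value + 1), for the 49 initiation factor genes in rows (divided by role) and the 14 libraries in columns, red for above and blue for below, with colours limited at 1.5 in either direction. Eif1a is red in all 8 knockouts, Eif4ebp1 and Eif4e3 are deepest red in knockouts 6 and 7, and most other knockout cells are pale.

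**Figure D4:**
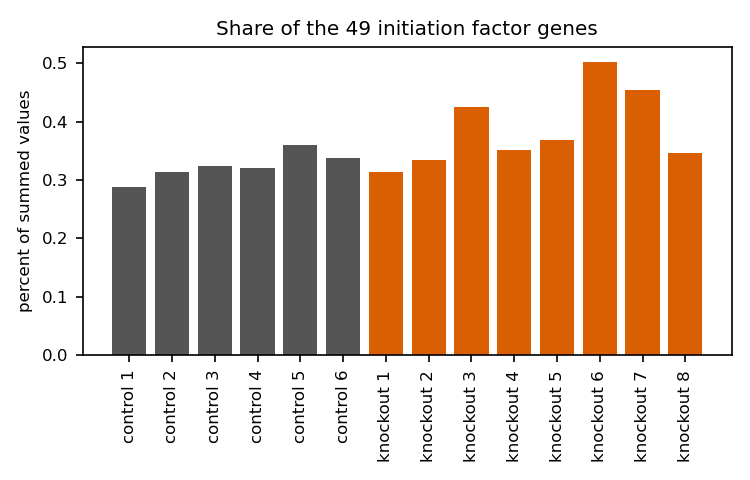
Share of the summed values of each library (percent, linear axis from 0) taken by the 49 initiation factor genes, with 1 bar per library. Controls lie at 0.288% to 0.360%, and knockouts 3, 6 and 7 are the highest at 0.425%, 0.503% and 0.454%. The sums that form the denominator have a mean of 24.1 M in controls and 19.1 M in knockouts.

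The sign was the same in both Xist classes for all 11 genes called, and for 28 of all 49. The 11 were called from these same libraries, so their agreement is partly fixed by the choice and is no replication. In the Y-positive libraries 39 factors were below 0 and in the Xist-high libraries 20, with medians of -0.22 and 0.05. With the class as a covariate the same 11 genes were called, with Eif1 and Eif3d called lower as well. In the Xist-high libraries alone, with 2 controls and 4 knockouts, no factor was called by limma, 4 had an unadjusted p of at most 0.05, and 219 of all 23554 genes were called. Whether the changes differ between the classes was not tested.

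Ratios between paralogs within a library are free of the scaling between libraries. For 12 pairs, chosen after the values had been seen, the log2 ratio was compared with an exact two-sided permutation test over all 3003 arrangements of the libraries, adjusted over the 12, and 3 pairs passed. Since values are not per length, a ratio of 1 does not mean equal abundance. The ratio of Eif1a to Eif1ax was 0.324, 0.453 and 0.521 (lowest, median and highest) in controls and 0.899, 1.23 and 1.66 in knockouts. No knockout reached the control range, the log2 difference was 1.47 (exact p = 0.000333, the smallest the test can give, adjusted p = 0.0040), and it was 1.34 (adjusted p = 0.026) without knockouts 3, 6 and 7.

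The ratio of Eif4ebp1 to Eif4ebp2 rose from 0.223 to 0.393 in controls to 0.369 to 1.34 in knockouts (log2 difference 0.97, exact adjusted p = 0.024). That of Eif4ebp1 to Eif4ebp3 rose by 1.49 (exact adjusted p = 0.049). Neither passed without knockouts 3, 6 and 7 (0.55 with exact adjusted p = 0.078, and 0.73 with 0.10). The first also missed the threshold without control 2 or 6 (exact adjusted p = 0.065). The other missed it without control 1, 2, 3, 4 or 6 or knockout 3, 6, 7 or 8 (exact adjusted p up to 0.115). The ratio of Eif4a1 to Eif4a2 differed by 0.40 and did not pass. In the 4 against 4 Y-positive libraries the exact test has 70 arrangements and a smallest p of 0.0286, so a pair that alone separates the groups cannot pass after adjustment over 12 (it would have 0.343). No pair passed there, and the log2 difference of Eif1a to Eif1ax was 1.496, against 1.47 in all libraries and 1.39 in the Xist-high libraries. Leaving out a single library added a call for Eif4e to Eif4e3 (without knockout 4), Eif4g1 to Eif4g2 (without control 3) and Eif4ebp2 to Eif4ebp3 (without control 5).

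**Figure D5:**
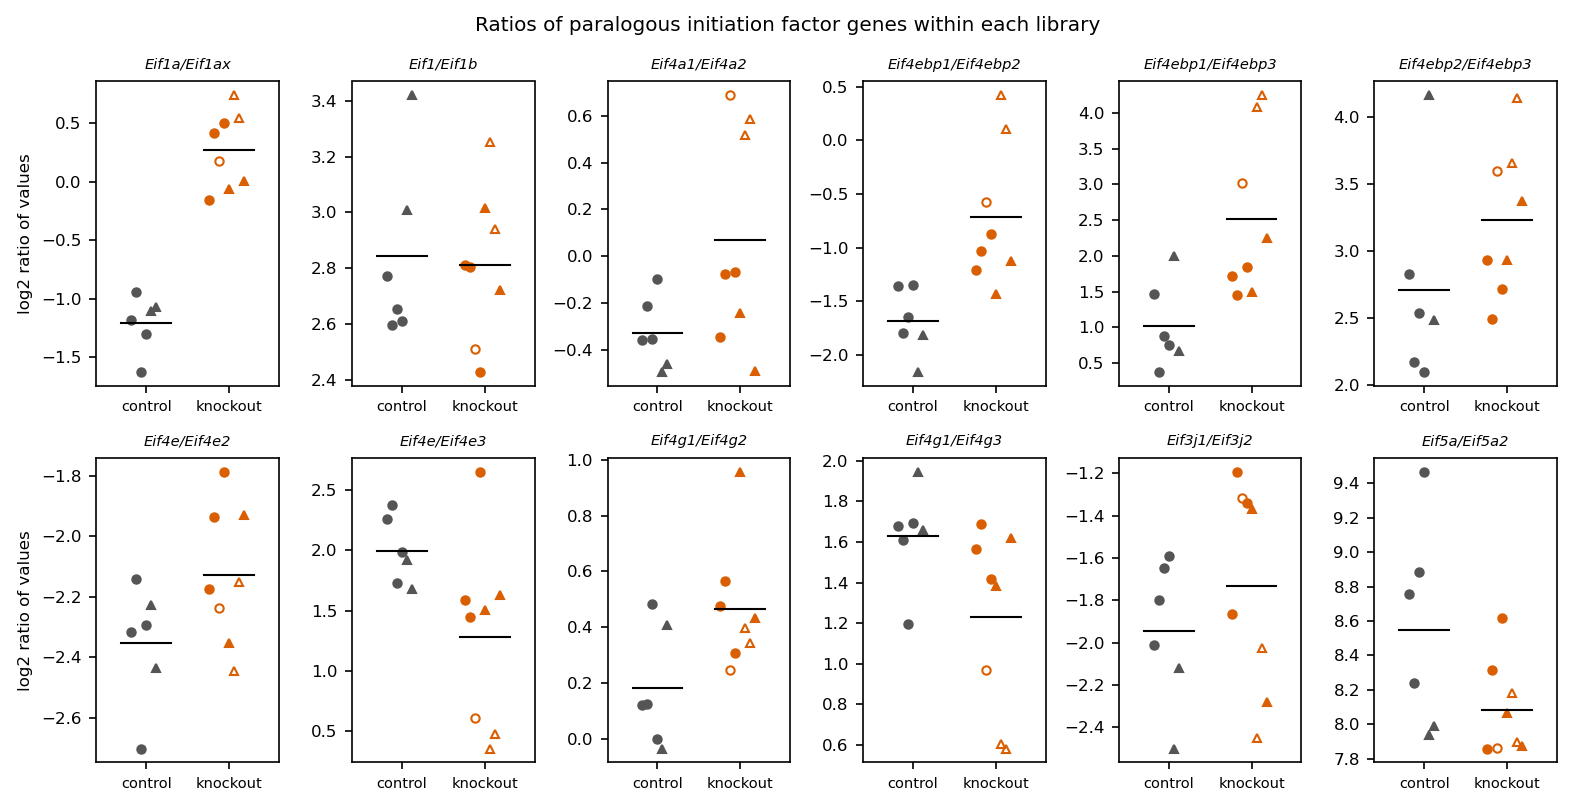
Log2 ratio of the values of 2 paralogous genes within each library for 12 pairs, controls in grey (n = 6) and knockouts in orange (n = 8), circles for Y-positive and triangles for Xist-high libraries, open symbols for knockouts 3, 6 and 7, and a line at each group mean. The Eif1a to Eif1ax ratio separates the groups, with the highest control at 0.521 and the lowest knockout at 0.899 on the linear scale.

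Promoters were read from RefSeq on GRCm38.p6, and an entry was found for 37 of the 49 factors, whether called or not. They are printed for 3 genes that fell and for Eif1ax, which did not pass, so that the motifs counted next can be seen in place. The first base is up to 250 bases before the start site, and bases inside the annotated gene were left off. Capitals mark matches, on either strand, to GGGCGG (the Sp1 box), CCAAT (the CCAAT box), CCGGAAG (an ETS site), CACGTG (the E-box), TGATGNAA (the C/EBP-ATF element of the integrated stress response) or the NRF1 site, and matches of different motifs do not overlap in these 4 windows. Eif4a2 (chr16:23107218-23107443, plus strand), Eif2b5 (chr16:20498567-20498816, plus strand), Eif4ebp2 (chr10:61452670-61452919, minus strand) and Eif1ax (chrX:159371928-159372177, plus strand) read as follows.
Eif4a2: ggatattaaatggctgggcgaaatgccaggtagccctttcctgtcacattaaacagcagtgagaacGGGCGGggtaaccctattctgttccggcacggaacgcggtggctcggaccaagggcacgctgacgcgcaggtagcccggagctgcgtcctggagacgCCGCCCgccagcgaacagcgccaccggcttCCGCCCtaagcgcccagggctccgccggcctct
Eif2b5: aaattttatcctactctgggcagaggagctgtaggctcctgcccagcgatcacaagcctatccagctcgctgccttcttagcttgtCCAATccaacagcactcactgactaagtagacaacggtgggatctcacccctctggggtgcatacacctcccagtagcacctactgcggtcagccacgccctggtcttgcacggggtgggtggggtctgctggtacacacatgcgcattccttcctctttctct
Eif4ebp2: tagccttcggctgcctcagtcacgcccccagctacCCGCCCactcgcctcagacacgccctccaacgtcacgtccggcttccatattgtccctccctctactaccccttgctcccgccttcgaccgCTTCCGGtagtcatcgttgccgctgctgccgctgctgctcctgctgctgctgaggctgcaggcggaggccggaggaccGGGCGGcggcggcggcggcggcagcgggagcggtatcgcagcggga
Eif1ax: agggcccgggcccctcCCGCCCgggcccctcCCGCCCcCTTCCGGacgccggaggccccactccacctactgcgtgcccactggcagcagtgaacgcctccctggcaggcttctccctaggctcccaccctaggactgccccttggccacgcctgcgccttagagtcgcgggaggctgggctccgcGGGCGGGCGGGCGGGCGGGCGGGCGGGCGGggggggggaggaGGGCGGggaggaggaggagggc

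Eif4a2 has 3 GC boxes, Eif2b5 a single CCAAT box and no GC box, Eif4ebp2 a pair of GC boxes and an ETS site, and Eif1ax a run of GC boxes near the start and, farther upstream, a pair of GC boxes beside an ETS site. In the 250 bases before the start, the GC box GGGCGG was found in 28 of 37 factor promoters (75.7%, against 42.6% of 21262 promoters of protein-coding genes). The ETS site was found in 12 (32.4%, against 8.98%), the E-box in 9 (24.3%, against 6.63%) and the CCAAT box in 12 (32.4%, against 35.4%). NRF1 was found in 1 (2.70%, against 1.07%) and the C/EBP-ATF element in 0 of 37 (against 3.18%). The 9 with an E-box were Eif1b, Eif3f, Eif3k, Eif4a1, Eif4e, Eif4g1, Eif4h, Eif5a and Eif5a2, of which Eif1b fell and the others did not pass. Of the 8 factors that fell and have an entry, 6 hold a GC box, 3 an ETS site, 2 a CCAAT box and 1 an E-box. A match describes these letters only.

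The genes that act with the initiation factors were taken from a list of 45 (poly(A)- and cap-binding proteins, ribosome helpers and helicases, kinases and phosphatases, elongation and release factors, and mitochondrial initiation factors). The list was made with earlier results of these data known. Of these genes 5 rose and 12 fell, 37.8% called against 22.4% of all genes tested, with a median of -0.13. All genes tested include genes of low value, so the 37.8% is not read as an excess. In the fit of the 11777 genes above the median value, 4453 were called, a share close to the 37.8% of the list. In that fit 5 of the listed genes were called higher and 12 lower. With equal sums 13 of the 45 were higher and 2 lower, where 33.3% of all genes were called higher and 3.68% lower. The 2 lower were Pdcd4 and Mtif3. Pdcd4, an inhibitor that binds eIF4A and keeps it from eIF4G, changed most. It fell from 2817, 3433 and 4282 to 1127, 1616 and 2382, with no overlap between the groups (log2 change -1.12, SE 0.18, adjusted p = 0.00053), and it remained lower with equal sums (-0.78, adjusted p = 0.0017) and without knockouts 3, 6 and 7 (-0.90, adjusted p = 0.0029).

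Eef2k, the kinase that inhibits the elongation factor eEF2, fell by 0.69 on the log2 scale (adjusted p = 0.012), and Rps6kb2, an S6 kinase downstream of mTOR, by 0.53 (adjusted p = 0.0020). The poly(A)-binding protein partners Paip2, a repressor, and Paip1, an activator, fell by 0.52 (adjusted p = 0.00099) and 0.41 (adjusted p = 0.021). Ctif, which links the nuclear cap-binding complex to eIF3, and Gigyf2, the partner of Eif4e2, each fell by 0.38 (adjusted p = 0.036 and 0.020). The mitochondrial initiation factor Mtif3 fell from 806, 927 and 1172 to 528, 647 and 730, without overlap (-0.57, adjusted p = 0.0012). Bzw2, which resembles eIF5 in its binding domain, rose by 0.52 (adjusted p = 0.037) and the elongation factor subunit Eef1b2 by 0.62 (adjusted p = 0.044). Of the 12 named, Bzw2, Eef1b2, Ctif and Paip1 did not pass without knockouts 3, 6 and 7 (0.29, 0.34, -0.26 and -0.39, with adjusted p = 0.097, 0.12, 0.13 and 0.072). Mcts1, a partner of Denr in ribosome recycling, fell by 0.56 (adjusted p = 0.0014) while its near copy Mcts2 rose by 0.45 (adjusted p = 0.040), and the split of reads between such copies is uncertain. Of these 12 genes, 5 lost the call when a single library was left out: Paip1 without control 1 or 4 (adjusted p up to 0.054), and Bzw2, Ctif, Mcts2 and Eef1b2 without any of 8, 10, 10 and 11 of the 14 libraries (adjusted p up to 0.072, 0.073, 0.092 and 0.090).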

How the data were processed

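Liver RNA of 14 mice was measured by total RNA sequencing (a stranded Takara SMARTer Pico kit, per the labels). The submitters' processing notes name kallisto, sleuth and mm10. Versions, annotation and strand setting are not given in the sources used here. The signal values the authors deposited are estimated counts per gene divided by a size factor per library, as read from the values, and were listed once per biotype, so 75859 lines were reduced to 54446 genes. The p-value and q-value columns and the natural log change deposited by the authors come from their Wald test, which covered 27865 genes. Depth in estimated reads is the sum of a library's values over the worth of 1 read. Of the values worth under 200 reads, 27.9% to 29.8% per library lay within 0.02 of a whole read, so no count test was run, and intervals are those of the fit.

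The main test was limma 3.58.1 (R 4.3.3) with a trended prior on log2(value + 1), knockout minus control, no covariate, on 23554 genes with a value of 10 or more in 6 or more libraries, with Benjamini-Hochberg adjustment over all of them. It was tested on simulated data. Fold changes on the log2(value + 1) scale understate those of low genes. The members, the lists and the alternatives were chosen with earlier results of these data known. The text gives every member called with its libraries, the other members by their change, and, of the 17 companion genes called, the 12 with the largest change. Xist classes came from Xist and Y-linked transcripts. Alternatives were the class as covariate, each class alone, 3 knockouts or single libraries left out, a replicate block, other filters, pseudocounts of 0.1 and 0.5, equal sums, quantile normalization, the authors' q and a threshold of 0.01. Shared 31-base words came from GENCODE M21 transcripts on GRCm38.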

Additional observations from a re-analysis of the deposited data

Results flagged for a closer look

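In the controls, Eif4g3, a scaffold of the eIF4F complex, had 1 library far from the others: control 3 was at 1353, and the control range was 703 to 1353 with a median of 873. The gap to the nearest control exceeded Dixon's 95% critical value. It was 1 of 98 groups checked, of which chance flags about 1 in 20. Eif4g3 was not called in either direction.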

How the results depend on the processing

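Of the 11 initiation factors called, all 11 were called with the Xist class as a covariate, with pseudocounts of 0.1 and 0.5 and among genes above the median value. The number called higher (2) was 0 in Xist-high libraries only, 13 with equal sums, and 1 in Y-positive libraries only, without knockouts 3, 6 and 7, with no filter, with the replicate block and at an adjusted p of 0.01; leaving out single libraries gave 1 to 3. The number called lower (9) was 0 in Xist-high libraries only, 0 with equal sums, 4 with quantile normalization and 4 at 0.01, and 6 to 11 with single libraries left out. For the companion genes, the number higher (5) was 3 with the covariate and by the authors' q, 0 in either class alone and at 0.01, 13 with equal sums, and 1 without knockouts 3, 6 and 7, with no filter and with the block, and 0 to 4 with single libraries left out. The number lower (12) was 0 in Xist-high libraries only, 2 with equal sums and 5 at 0.01, and 7 to 12 with single libraries left out. Eif2d turned to 0.012 and Eif5a to 0.31 with equal sums. Mettl3 missed the threshold in Xist-high libraries only (-1.03, adjusted p = 0.072) and was at -1.21 to -1.12 with single libraries left out. The causes of these moves were not tested. The single-class fits also had fewer libraries, and its part in their lost calls was not tested either. Whether replicate numbers pair the samples is not known. The same-number correlation was 0.071 for number 3 and 0.14 to 0.23 for the others, against means of -0.039 to -0.011 with other numbers. Libraries of the same number were of the same Xist class, while the other numbers included the other class. The class was not taken out of these correlations, so pairing cannot be told apart from class here. Of the 6 controls, 2 correlated best with their own number. The replicate block gave 1 member higher and 6 lower, of which 6 were among the 11. It ended the calls of Eif4ebp1, Eif4ebp2, Eif2d, Eif3g and Eif5 and added Eif1. The Xist-high libraries, at 11.1 to 19.3 M estimated reads and 2 controls, limit what a single class can show.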

Other observations

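The rule left out 16 rows with the Eif prefix. Eif2s3x and Eif2s3y, the X- and Y-linked genes of the gamma subunit of eIF2, were at 0.09 (SE 0.24) and -1.24 (SE 1.04). Neither was called in that fit, which pools both Xist classes, and Eif2s3y ran from 15.6 to 409.8 in its controls. In the Y-positive libraries alone Eif2s3y was called lower (-0.73, limma adjusted p = 0.016). Its highest knockout of that class, 271, lay below the lowest control of the class, 322. It was also called lower with the class as a covariate (-0.56, adjusted p = 0.033), but not in the Xist-high libraries alone (-0.30, adjusted p = 0.77). Eif2s3x passed in none of these 3 fits. Of the eIF2 kinases, Eif2ak4, the sensor of amino acid shortage, rose from 328, 366 and 441 to 408, 447 and 510 (log2 change 0.30, limma adjusted p = 0.029), and Eif2ak1, the haem-regulated kinase, fell from 425, 518 and 578 to 397, 436 and 463 (-0.23, adjusted p = 0.0497). Neither passed without knockouts 3, 6 and 7 (0.21 with adjusted p = 0.14, and -0.22 with adjusted p = 0.11). Eif2ak2 and Eif2ak3 were at 0.24 and 0.09 and did not pass. The pseudogene Eif1-ps2 was lower in knockouts (-0.996, SE 0.28, adjusted p = 0.019) at values of 7.70 to 32.6, and Eif4a-ps4 was at 0.00.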
